A study of Homo sapiens with 3 samples.

Results

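The cells described here are those with the highest share of RNA from 10 DNA replication genes in Kelly cultures. The cultures were in 3 states of response to TAE684, a kinase inhibitor of ALK. Kelly is a human cell line grown from a neuroblastoma, a tumour of the sympathetic nervous system, and it carries many copies of MYCN and a mutated, active ALK. Sensitive cells had been given DMSO, the solvent. Intermediate resistant cells had been cultured in 500 nM TAE684, and fully resistant cells in 1 µM TAE684. All 3 were measured by droplet single-cell RNA sequencing with 10x Genomics 3' v2 chemistry, with 1 library per state, so state, culture and drug exposure cannot be told apart. Each cell was given a score, the summed UMIs (counts of distinct RNA molecules) of 10 genes of DNA replication per 10000 UMIs of the cell. The 10 genes were PCNA, CDC6, FEN1, CLSPN, RRM2, MCM5, DTL, UNG, RAD51AP1 and TYMS. The 15% of cells with the highest score in each library were taken as members. The sensitive library gave 812 members among 5415 cells, the intermediate resistant library 943 among 6288 and the fully resistant library 950 among 6331, so that 2705 of 18034 cells were members. The equal share per library was set by this rule and is not a measurement. The rest of each library also held cells with RNA of these genes, so members are not all of its replicating cells.

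Before a human cell copies its DNA, the origin recognition complex, CDC6 and CDT1 load rings of the MCM2 to MCM7 helicase on origins of replication. Cyclin E with CDK2 then releases E2F transcription factors from the retinoblastoma protein, and E2F1 and its relatives switch on the genes of the replication machinery, of nucleotide synthesis and of histone supply. CDC45 and the GINS complex turn the loaded rings into running helicases, and DNA polymerases, held on the template by the PCNA clamp, copy both strands. The mitotic genes, among them the kinases PLK1 and AURKA and cyclin B, are switched on after replication and often through a different promoter element, the CHR. MYCN, amplified in Kelly cells, drives entry into the cell cycle in neuroblastoma.

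Promoters of 4 replication genes and of 2 mitotic genes are printed first, because the letters of these elements stood in different shares of the gene groups described below. Each sequence is the RefSeq promoter in GRCh38.p14, 5′ to 3′ along the gene, from 250 bases before the start of the gene to 50 bases after it. Capitals mark an E2F match in the first 4 sequences and a CHR match in the last 2. The E2F letters searched were TTTGGCGC, TTTCCCGC, TTTCGCGC and TTTGCCGC, and the CHR letters were TTTGAA, each on both strands. The deposited counts were made on hg19, so the positions belong to the promoters and not to the counts.
CDC6: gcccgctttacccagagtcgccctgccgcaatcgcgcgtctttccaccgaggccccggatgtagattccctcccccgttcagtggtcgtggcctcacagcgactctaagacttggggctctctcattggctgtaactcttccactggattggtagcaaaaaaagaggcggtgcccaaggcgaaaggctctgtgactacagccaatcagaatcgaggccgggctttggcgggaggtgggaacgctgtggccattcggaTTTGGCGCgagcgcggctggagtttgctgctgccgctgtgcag
DTL: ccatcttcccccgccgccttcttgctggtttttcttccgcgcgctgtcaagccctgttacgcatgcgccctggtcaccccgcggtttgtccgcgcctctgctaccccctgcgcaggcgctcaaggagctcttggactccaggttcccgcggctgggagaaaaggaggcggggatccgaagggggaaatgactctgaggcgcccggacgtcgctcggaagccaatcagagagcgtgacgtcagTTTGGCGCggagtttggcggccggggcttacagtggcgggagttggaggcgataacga
MCM6: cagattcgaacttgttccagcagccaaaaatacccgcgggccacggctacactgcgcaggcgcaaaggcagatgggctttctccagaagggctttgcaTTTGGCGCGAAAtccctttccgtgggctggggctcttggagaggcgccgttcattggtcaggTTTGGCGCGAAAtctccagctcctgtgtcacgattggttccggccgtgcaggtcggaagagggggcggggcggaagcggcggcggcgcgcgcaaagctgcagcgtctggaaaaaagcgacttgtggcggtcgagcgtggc
E2F1: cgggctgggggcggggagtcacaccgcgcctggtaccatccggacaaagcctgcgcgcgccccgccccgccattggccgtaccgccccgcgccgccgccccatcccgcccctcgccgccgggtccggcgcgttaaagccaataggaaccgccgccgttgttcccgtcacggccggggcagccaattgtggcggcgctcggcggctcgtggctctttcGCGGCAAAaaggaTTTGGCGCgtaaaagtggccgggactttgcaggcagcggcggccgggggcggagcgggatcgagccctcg
PLK1: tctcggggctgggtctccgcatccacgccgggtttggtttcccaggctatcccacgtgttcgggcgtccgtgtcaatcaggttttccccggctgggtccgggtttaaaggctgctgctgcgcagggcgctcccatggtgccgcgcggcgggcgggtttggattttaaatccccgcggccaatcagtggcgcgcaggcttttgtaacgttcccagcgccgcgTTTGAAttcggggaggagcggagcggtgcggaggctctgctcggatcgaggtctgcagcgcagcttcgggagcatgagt
CCNB2: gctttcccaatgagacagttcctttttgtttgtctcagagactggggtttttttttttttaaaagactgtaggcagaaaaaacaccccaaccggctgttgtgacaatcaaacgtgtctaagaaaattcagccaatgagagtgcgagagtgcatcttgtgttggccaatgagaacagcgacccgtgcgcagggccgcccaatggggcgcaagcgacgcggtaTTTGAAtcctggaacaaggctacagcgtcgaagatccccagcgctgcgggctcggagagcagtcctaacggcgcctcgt
CDC6 (chr17:40287629-40287928, plus strand) is the loader of the helicase, and its match began 7 bases after the start. DTL (chr1:212035498-212035797, plus strand) directs the destruction of CDT1 once replication has begun. MCM6 (chr2:135876394-135876693, minus strand) is a helicase subunit, and each of its 2 runs of capitals held overlapping matches on opposite strands. E2F1 (chr20:33686336-33686635, minus strand) is itself one of the activating factors. PLK1 (chr16:23678639-23678938, plus strand) and CCNB2 (chr15:59104896-59105195, plus strand), a mitotic kinase and a B-type cyclin, both had the CHR letters beginning 29 bases before the start. The promoter of CCNB1, another mitotic gene lower in members of all 3 libraries, held neither set of letters in this window and is not printed.

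An E2F match stood in 5 of the 9 score genes with a promoter in the table (55.6%). It stood in 14 of 49 promoters (28.6%) of genes at least 1.5-fold higher in members than in the rest of the library in all 3 libraries, and in 1 of 25 promoters (4%) of genes lower in all 3. Among the 4437 promoters of genes tested the share was 6.42%, and among all 27305 promoters of that length it was 3.33%. The CHR letters showed the opposite distribution, with 12 of 25 promoters (48%) of the genes lower in members, 4 of 49 (8.16%) of the genes higher in members and 0 of 9 score genes. The shares for the CHR letters were 9.89% of the genes tested and 15.4% of all promoters. These are counts of letters in a fixed window and do not show where a factor was bound.

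Cells were barcodes with at least 5000 UMIs, at least 500 genes and at most 20% of UMIs from mitochondrially encoded genes. They held 95119772 sensitive, 102449567 intermediate resistant and 106163582 fully resistant UMIs. A median member held 16332.5, 16144 and 17023 UMIs in that order, against 15892, 15539 and 15728 in the rest. Doublets were kept. The libraries shared 38 to 62 cell barcodes in pairs and 0 in all 3, where the product of the numbers of cells over the number of possible barcodes gives 46.2 to 54.0 for the pairs. Neuroblastoma markers were abundant in members (summed levels of 2678, 2702 and 1982 CPM, the UMIs of a gene per 1000000 UMIs) and in the rest (3006, 3262 and 2362 CPM). Summed immune markers reached 1.23 to 2.77 CPM in members and 2.06 to 2.65 CPM in the rest, fibroblast markers 10.98 to 15.8 and 15.4 to 20.7 CPM, and epithelial markers 1.48 to 14.1 and 1.19 to 12.7 CPM. Of 5 endothelial markers, 4 were found among the gene rows. CDH5 had 0 UMIs in the members of every library. The list summed to at most 0.449 CPM in members except in the fully resistant library. There it summed to 19.1 CPM in members and 40.1 CPM in the rest, nearly all of it CLDN5 (18.1 and 39.4 CPM). Of 6 Schwann cell markers, CDH19 had 0 UMIs in every library and SOX10 had 0, 0 and 1 UMIs in members. That list summed to 2.85 CPM in members and 2.96 CPM in the rest of the sensitive library, 2.51 and 2.90 CPM in the intermediate resistant library, and 55.3 and 92.3 CPM in the fully resistant library, where 1 gene of the 6 gave nearly all of it and was lower in members. The part of such markers in the results was not tested.

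The score was spread without a gap in all 3 libraries. Its median was 15.3 in members and 7.08 in the rest of the sensitive library, 16.8 and 6.83 in the intermediate resistant library, and 19.8 and 7.77 in the fully resistant library. The lowest member stood at 13.0674 and the highest cell outside at 13.0672 in the sensitive library, at 14.202 and 14.2008 in the intermediate resistant library, and at 16.9889 and 16.9884 in the fully resistant library. Members are the upper end of a continuous range. At the other end, cells with a score under 2 made up 8.16% of the sensitive library (95% exact Clopper-Pearson interval 7.45 to 8.92), 16.0% of the intermediate resistant library (15.1 to 17.0) and 12.7% of the fully resistant library (11.9 to 13.5). Both resistant libraries had a separate peak in the lowest bin of the score that the sensitive library lacked. After every cell was thinned to 5000 UMIs, the shares with 0 UMIs of the 10 genes were 7.29%, 12.3% and 9.35% in the same order. All intervals given here cover counting error only, and none of them measures the spread between cultures.

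**Figure D1:**
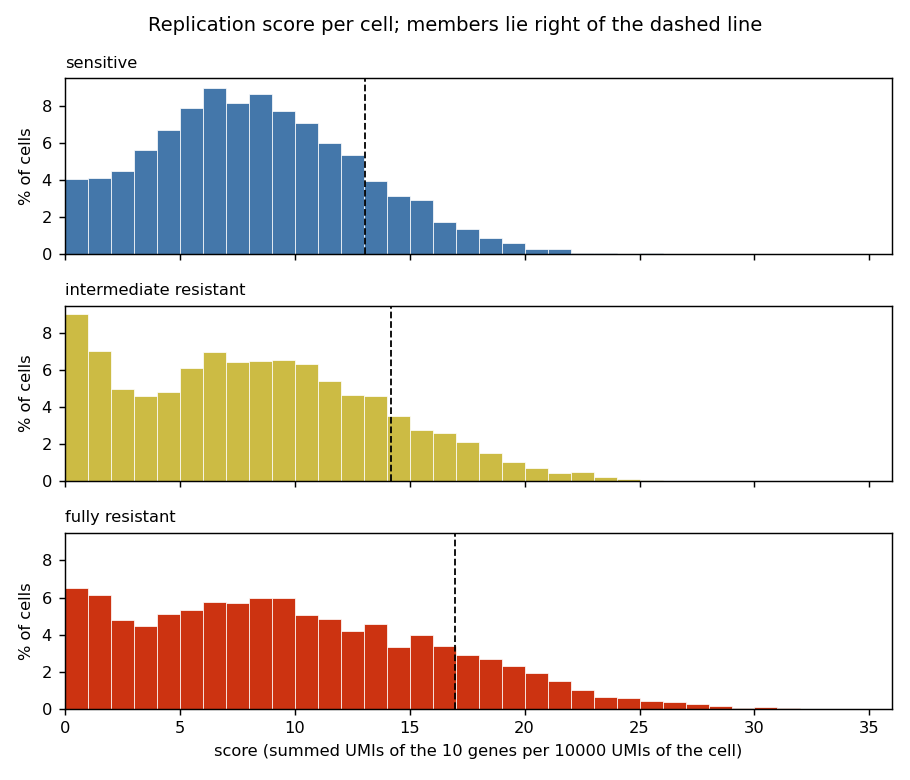
Percentage of cells (vertical axis) in bins of the replication score (horizontal axis, summed UMIs of the 10 genes per 10000 UMIs) in the sensitive, intermediate resistant and fully resistant libraries. The dashed line marks the lowest member of each library, at 13.1, 14.2 and 17.0, and the resistant libraries show a second peak below a score of 2.

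Among the score genes themselves, which chose the members, TYMS, the thymidylate synthase, supplied the most UMIs: 20.2%, 24.1% and 30.1% of members' score UMIs in the sensitive, intermediate resistant and fully resistant libraries. CDC6 stood at 83.5 CPM in members and 31.6 CPM in the rest of the sensitive library, at 110 and 35.4 CPM in the intermediate resistant library and at 106 and 31.7 CPM in the fully resistant library. That made it 2.64, 3.11 and 3.35 times higher in members. PCNA, the sliding clamp, was 2.53, 2.67 and 2.90 times higher, and TYMS was 1.81, 2.12 and 1.94 times higher. To read each gene in cells it did not help to choose, the 10 genes were split into 2 sets of 5 and each set was read in cells chosen by the other. The ratios then ranged from 1.35 (TYMS) to 2.03 (CDC6) in the sensitive library, from 1.62 (TYMS) to 2.26 (CDC6) in the intermediate resistant library and from 1.47 (TYMS) to 2.58 (CLSPN) in the fully resistant library. Free RNA, read in barcodes with 10 to 100 UMIs, held these genes unequally. PCNA reached 176, 147 and 181 CPM there, the highest of the 10 relative to its level in all cells (83.9, 64.6 and 89.6 CPM). CLSPN was lower there than in all cells, at 71.7, 50.9 and 75.7 CPM against 93.7, 81.3 and 108 CPM, and DTL likewise, at 45.5, 41.6 and 34.0 CPM against 58.8, 52.6 and 41.9 CPM. The part of free RNA in the levels was not tested.

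Outside the score, few genes separated members from the rest of their library. At a level of at least 20 CPM in the higher sum and a ratio of at least 1.5, 76 of 4993 genes (1.52%) were higher and 35 (0.701%) lower in sensitive members. In intermediate resistant members 227 of 4909 genes (4.62%) were higher and 79 (1.61%) lower, and in fully resistant members 233 of 5141 genes (4.53%) were higher and 79 (1.54%) lower. In all 3 libraries at once, 59 genes were higher and 28 lower of 4393 tested, and 0 moved in opposite directions between libraries. With 1 library per state no test was possible, and these are calls by size alone. The share of higher genes among the calls was 68.5%, 74.2% and 74.7% and depended on the scaling: with TMM factors it was 46.7%, 52.1% and 61.1%, and with mitochondrially encoded and ribosomal protein genes left out of the totals it was 39.6%, 45.4% and 53.9%. With median-of-ratios factors it was 54.3% and 58.0% in the sensitive and intermediate resistant libraries. In the intermediate resistant library these choices moved the median log2 ratio of all genes by -0.13 (TMM) and -0.14 (totals without those genes). Members also held less ribosomal protein RNA, 33.9%, 35.0% and 30.7% of UMIs against 37.1%, 40.3% and 34.1% in the rest. The score divides by all UMIs of a cell, these included, so a lower share of them raises the score by construction. The part of this in the difference was not tested.

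The choice of members was checked on S phase genes that the score did not use. Of 31 such genes with at least 5 CPM, 19 were at least 1.5-fold higher in sensitive members, 26 in intermediate resistant members and 30 in fully resistant members, and 0 were lower. Over all genes at that level, 1.43%, 4.72% and 4.48% were higher and 1.04%, 1.73% and 2.02% were lower in the same order. These shares are also the background for the other lists read within libraries below. The list's median log2 ratios were 0.65, 0.84 and 0.97, beside 0.07, 0.13 and 0.06 for all genes. EXO1, an exonuclease of mismatch repair, had 43.3, 40.5 and 46.4 CPM in members against 22.3, 17.1 and 16.3 CPM in the rest, and was 1.94, 2.37 and 2.85 times higher in members. TK1, the thymidine kinase, was the gene with the highest ratio by the fixed rule across libraries: 105, 104 and 106 CPM in members against 53.1, 46.3 and 41.5 CPM in the rest. Its level in members hardly differed between libraries, while its level in the rest was lowest in the fully resistant library. Other genes named by that rule were GINS2, SLBP, CDCA5, E2F1, RFC2, RFC4, ATAD2, CHAF1A and MSH6, with ratios between 1.66 and 1.82 in the sensitive library.

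In the helicase group, 8, 19 and 17 of 26 genes of origin licensing and helicase were higher in sensitive, intermediate resistant and fully resistant members, and 0 were lower. MCM3 had 189, 148 and 122 CPM in members and 117, 83.0 and 62.3 CPM in the rest, ratios of 1.62, 1.79 and 1.963. MCM4 and MCM6 passed the 1.5-fold rule in every library (1.65, 1.74 and 2.18 for MCM4 and 1.69, 1.89 and 2.12 for MCM6). MCM2 (1.41, 1.57 and 1.79) and MCM7 (1.47, 1.58 and 1.63) missed it in the sensitive library. GINS2, a subunit of the running helicase, was 1.82, 2.0005 and 2.30 times higher, CDC45, which binds the same helicase, 1.89, 2.30 and 2.20 times, and MCM10, which helps to fire origins, 1.83, 2.01 and 2.46 times. CDT1, the loader that is destroyed once replication starts, had 88.4 against 64.5 CPM in the sensitive library, 55.2 against 36.5 CPM in the intermediate resistant library and 34.4 against 16.4 CPM in the fully resistant library. Its ratios were 1.37, 1.51 and 2.10, and the first missed the rule. In the intermediate resistant library CDT1, MCM2 and MCM7 passed the rule under the main scaling only. They fell below it with TMM factors, median-of-ratios factors and totals lacking mitochondrially encoded and ribosomal protein genes.

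**Figure D2:**
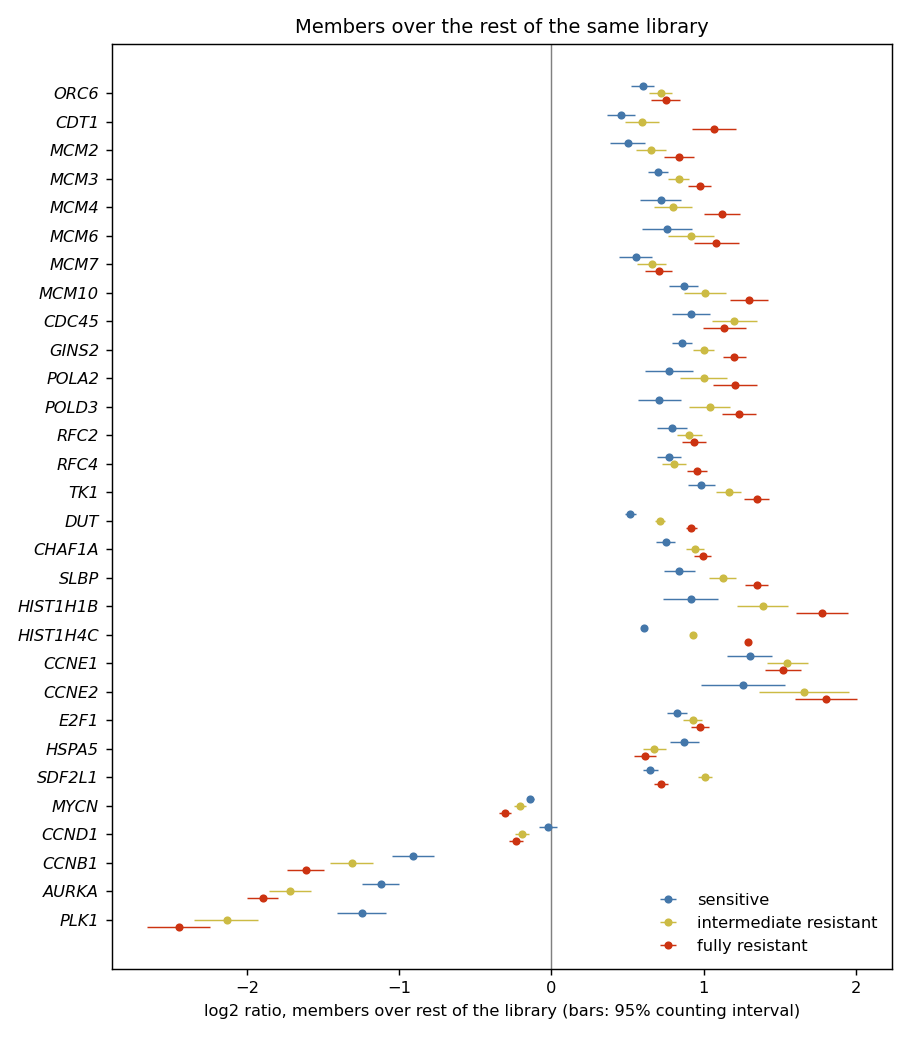
Log2 ratio of members over the rest of the same library (horizontal axis) for 30 genes outside the score, with 95% counting intervals, in the sensitive, intermediate resistant and fully resistant libraries. Replication genes lie right of 0 and mitotic genes left of it.

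Polymerase, clamp loader and ligase genes were higher in 7, 12 and 17 of 29 cases, with 1 lower in each library. The background over all genes at 5 CPM or more was 1.43%, 4.72% and 4.48% higher and 1.04%, 1.73% and 2.02% lower. POLD3, a subunit of the polymerase that copies the lagging strand, was 1.64, 2.05 and 2.35 times higher in members, and POLA2, of the priming polymerase, 1.71, 2.0008 and 2.31 times. RFC2 and RFC4, of the complex that loads PCNA, were 1.73, 1.88 and 1.91 times and 1.71, 1.75 and 1.94 times higher. Nucleotide supply genes were higher in 2, 9 and 9 of 25 cases, with 1 lower in the intermediate resistant library. DUT, which keeps uracil out of DNA, had ratios of 1.43, 1.64 and 1.89 and missed the rule in the sensitive library. Among genes of fork protection and the S phase checkpoint, 3 of 16, 5 of 16 and 5 of 15 were higher, among them CDC25A, the phosphatase that activates CDK2 (1.71, 2.13 and 2.45). Chromatin assembly genes were higher in 4, 7 and 9 of 16 cases. CHAF1A, the large subunit of the factor that places histones on new DNA, was 1.68, 1.92 and 1.99 times higher. Recombination and mismatch repair genes were higher in 8 of 26, 13 of 25 and 19 of 25 cases, and 0 were lower in these last 3 lists. Cohesin genes were higher in 2, 3 and 3 of 16 cases, with CDCA5, which fastens cohesin to sister chromatids, at 1.78, 1.98 and 2.03. In the intermediate resistant library several of these counts depended on the scaling. With TMM factors, and with totals lacking mitochondrially encoded and ribosomal protein genes, 12 and 11 origin genes, 8 and 7 polymerase genes, 4 and 3 nucleotide genes and 3 and 3 fork genes were higher.

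Regulators of the step from G1 to S were higher in 9 of 30, 12 of 30 and 12 of 28 cases, with 1 lower in the intermediate resistant library. The E cyclins were among those with the highest ratios. CCNE1 stood at 39.2 CPM in members and 15.9 CPM in the rest of the sensitive library, at 46.3 and 15.8 CPM in the intermediate resistant library and at 56.1 and 19.6 CPM in the fully resistant library. The ratios were 2.47 (95% counting interval 2.23 to 2.74), 2.93 (2.67 to 3.21) and 2.87 (2.65 to 3.11), so the sensitive library's interval overlapped that of both resistant libraries. CCNE2 was a low gene, with 11.5, 9.92 and 20.2 CPM in members against 4.78, 3.14 and 5.78 CPM in the rest. E2F1 was 1.77, 1.90 and 1.97 times higher, at 176, 179 and 206 CPM in members. CCND1, the D-type cyclin of early G1, did not pass the rule in any library. It had 190, 278 and 277 CPM in members against 193, 318 and 325 CPM in the rest. CDKN1A, the p21 inhibitor of cyclin-dependent kinases, had 13.5, 0.595 and 40.7 CPM in members against 14.2, 0.447 and 35.7 CPM in the rest, and did not pass it either.

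Genes of G2 and mitosis formed the lower side. Of 55, 56 and 56 measured, 0 were higher and 15, 21 and 25 were at least 1.5-fold lower in members, with median log2 ratios of -0.32, -0.37 and -0.49. Among all genes at 5 CPM or more, 1.43%, 4.72% and 4.48% were higher and 1.04%, 1.73% and 2.02% lower. PLK1 had 25.3, 13.0 and 12.6 CPM in members against 59.9, 57.2 and 68.5 CPM in the rest, ratios of 0.422, 0.228 and 0.184. AURKA had 45.0, 30.0 and 50.6 CPM against 98.0, 98.6 and 188 CPM, and CCNB1, the mitotic cyclin, 36.01, 29.9 and 35.7 CPM against 67.5, 74.2 and 109 CPM. The other genes lowest by the fixed rule were CENPE, CENPA, CDC20, PTTG1 and CDKN3 of the mitotic apparatus, ARL6IP1, a membrane protein gene, and PNRC1, a nuclear receptor coactivator gene. Not all genes of this list were low: 14, 10 and 8 of those measured had a ratio above 1. The list's summed level was 5563, 5325 and 5609 CPM in members, against 6221, 6110 and 7145 CPM in the rest. Members were also rare among the 15% of cells with the highest G2 and M score, with 25 (3.08%), 12 (1.27%) and 5 (0.526%) of them there, against 17.1%, 17.4% and 17.6% of the rest. When those cells were left out of the rest, AURKA and CCNB1 were no longer lower in members of the sensitive library (ratios of 1.02 and 1.01) or of the intermediate resistant library (1.15 and 1.10). Members kept their own such cells, so this setting raises the ratios of mitotic genes by construction and is no result about members.

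The order of these groups along the score was read in 20 equal bins of cells. The summed level of the other S phase genes was 561 CPM in the lowest bin and 2532 CPM in the highest bin of the sensitive library, 384 and 2508 CPM in the intermediate resistant library, and 410 and 2954 CPM in the fully resistant library. G2 and M genes did not follow that course. In the fully resistant library they summed to 1367 CPM in bin 1, 10911 CPM in bin 10 and 5603 CPM in bin 20, and in the sensitive library to 1967, 7202 and 5482 CPM. The cells with most mitotic RNA therefore had a middling score, and the cells with least score had little RNA of either kind. E2F1 was at 13.1, 10.0 and 16.3 CPM in the lowest bin of the 3 libraries and at 182, 189 and 214 CPM in the highest.

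**Figure D3:**
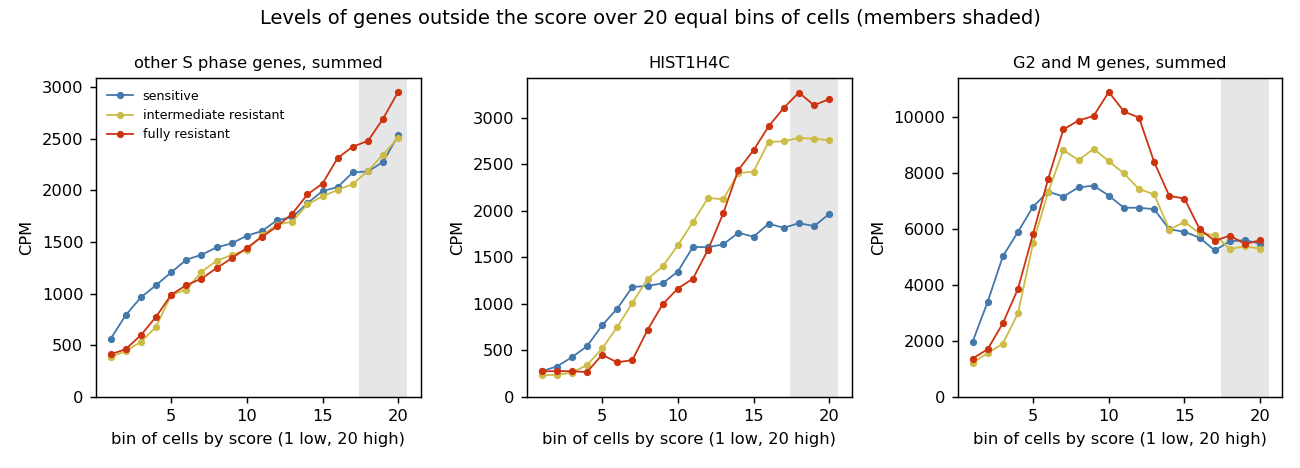
Summed or single gene level in CPM (vertical axes) over 20 equal bins of cells ordered by score (horizontal axes), for other S phase genes, HIST1H4C and the G2 and M genes in the sensitive, intermediate resistant and fully resistant libraries. Members are shaded: the other S phase genes reach 2532, 2508 and 2954 CPM in the highest bin, while the G2 and M genes peak in the middle bins.

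Histone genes split by kind. HIST1H4C, a histone H4 gene switched on in S phase, stood at 1889 CPM in members and 1239 CPM in the rest of the sensitive library, at 2777 and 1457 CPM in the intermediate resistant library and at 3200 and 1306 CPM in the fully resistant library. The ratios were 1.53 (1.504 to 1.547), 1.91 (1.88 to 1.93) and 2.45 (2.42 to 2.48). Their counting intervals did not overlap, but these leave out the spread between cells and between cultures. The lowest member score also differed between the libraries. The sensitive ratio passed the 1.5-fold rule under the main scaling only. It fell below it with TMM factors, median-of-ratios factors and totals lacking mitochondrially encoded and ribosomal protein genes. Per cell, the median of HIST1H4C was 18.8, 27.1 and 31.5 UMIs per 10000 in members and 4.96, 3.78 and 3.21 in the rest. The 75th percentile of the rest was 19.8, 24.3 and 8.65, and in the sensitive library it lay above the median of members. Of the replication-dependent histone genes measured, 4 of 9, 6 of 13 and 5 of 7 were higher in members and 1, 2 and 1 lower. HIST1H1B, a linker histone gene, was 1.89, 2.62 and 3.43 times higher, while HIST1H2AC was lower in the intermediate resistant library (5.89 against 25.4 CPM). Messages of this histone class mostly lack the poly(A) tail on which the libraries rest, and their genes are close copies of each other, so the levels of single genes are uncertain. Of 10 replication-independent histone genes, 0 were higher and 1, CENPA, was lower in every library. The list's median lay near 0 in all of them, and its sign changed with the scaling in the sensitive and intermediate resistant libraries. SLBP, which binds the stem-loop of histone messages, had 79.1, 93.8 and 127 CPM in members against 44.1, 43.0 and 49.98 CPM in the rest.

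MYCN, the amplified oncogene, was not among the genes higher in members. It stood at 1143 CPM in members and 1258 CPM in the rest of the sensitive library, at 365 and 421 CPM in the intermediate resistant library, and at 372 and 459 CPM in the fully resistant library. The ratios of 0.909, 0.868 and 0.810 missed the rule, with counting intervals below 1 in all 3 libraries under the main scaling. Of 16 genes of MYCN and the adrenergic neuroblastoma factors, 0 were higher in any library and 0, 2 and 2 were lower, with medians of -0.18, -0.14 and -0.31. TFAP2B, a sympathoadrenal transcription factor, was among the lower ones (111 against 178 CPM in the intermediate resistant and 53.2 against 80.9 CPM in the fully resistant library). ALK, the drug's target, was barely detected, with 5.47, 3.90 and 0.801 CPM in members against 5.43, 5.32 and 1.33 CPM in the rest. CTCFL, a germline relative of the chromatin factor CTCF, stood at 126 CPM in members and 129 CPM in the rest of the fully resistant library, and at 0.599 and 0.575 CPM in the sensitive library.

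Chaperones of the endoplasmic reticulum were a further group on the higher side. Of 16 genes, 5, 8 and 3 were higher and 0 lower in sensitive, intermediate resistant and fully resistant members, with median log2 ratios of 0.50, 0.60 and 0.48. The counts depended on the scaling, with 2, 3 and 1 higher under TMM factors, 3, 5 and 2 under median-of-ratios factors and 1, 2 and 1 with totals lacking mitochondrially encoded and ribosomal protein genes, while 0 were lower under each. Under the main scaling, 1.43%, 4.72% and 4.48% of all genes at 5 CPM or more were higher and 1.04%, 1.73% and 2.02% lower. HSPA5, the main chaperone of that compartment, had 90.4, 127 and 123 CPM in members against 49.3, 79.1 and 80.3 CPM in the rest. SDF2L1, a partner of it, had 300.2, 309 and 301 CPM against 191, 154 and 182 CPM. The summed level of the list over all bins of the score was highest at the top, at 2075, 2771 and 2719 CPM, although the lowest bin of the fully resistant library also held 2152 CPM.

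Neuronal genes did not move as one group. STMN2, a microtubule regulator of growing neurites, had 231, 136 and 48.1 CPM in members against 288, 274 and 82.1 CPM in the rest and passed the rule in both resistant libraries (ratios of 0.494 and 0.586). NEFH, the heavy neurofilament, had 297, 79.2 and 97.3 CPM in members against 237, 42.9 and 60.4 CPM in the rest, and passed the rule upward in the same libraries (1.85 and 1.61). In the neuronal cytoskeleton list 0, 1 and 1 genes were higher and 1, 2 and 1 lower, of 18, 16 and 15. Proneural factors were higher in 1 of 8, 2 of 9 and 0 of 12 cases, catecholamine and neuropeptide genes in 0 of 14, 0 of 16 and 1 of 14 cases with 0, 2 and 1 lower, and genes of the resistance states in 1 of 20, 1 of 23 and 1 of 21 cases with 1, 1 and 0 lower. Their medians lay between -0.14 and 0.11, and the scaling decided the sign of several of them: of the proneural list in every library, of the catecholamine and resistance-state lists in the intermediate resistant library and of the cytoskeleton list in the fully resistant library. Targets of ERK signalling were higher in 0 of 7, 0 of 3 and 0 of 9 cases, with 1 lower in the fully resistant library. Ribosome biogenesis genes were higher in 0, 1 and 0 of 24 cases and glycolysis genes in 0 of 19 in each library. Mitochondrially encoded genes were higher in 0, 0 and 1 of 13 cases. For all genes at 5 CPM or more, the shares in these libraries were 1.43%, 4.72% and 4.48% higher and 1.04%, 1.73% and 2.02% lower. Counts of so few genes are no result about the lists of this paragraph.

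Members were not uniform. Within each library they were divided into 3 equal groups by HIST1H4C per 10000 UMIs, a split chosen after its values were seen, and the members with most HIST1H4C (the high group) were set against those with least (the low group). CCNE1 had 29.0 CPM in the high group and 48.9 CPM in the low group of sensitive members, 33.6 and 56.1 CPM in intermediate resistant members, and 28.6 and 82.9 CPM in fully resistant members. Of the score genes, UNG, which removes uracil from DNA, had ratios of 0.869 (0.752 to 1.00), 0.537 (0.478 to 0.603) and 0.589 (0.528 to 0.655), and MCM5 had ratios of 0.728, 0.694 and 0.702. MYCN, which is not in the score, had 952, 322 and 312 CPM in the high group against 1388, 468 and 470 CPM in the low group. RRM2, the regulated subunit of ribonucleotide reductase and also a score gene, had 221, 261 and 231 CPM against 150, 157 and 161 CPM. TOP2A, a topoisomerase that rises towards mitosis, had 171, 178 and 163 CPM in the high group against 86.6, 57.4 and 58.6 CPM in the low group. The mean score was alike in the high and low groups, at 15.8 and 15.7 in the sensitive, 17.1 and 17.4 in the intermediate resistant and 20.3 and 20.4 in the fully resistant library. Since the sum of the score genes is thus held nearly equal, a lower level of some of them goes with a higher level of others by construction, and their opposite directions are no result. The high groups also held deeper cells, with medians of 16954.5, 17028.5 and 17507.5 UMIs against 15216, 14720 and 15770, and the part of depth in these ratios was not tested. The genes shown for this split were picked after their values were seen.

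**Figure D4:**
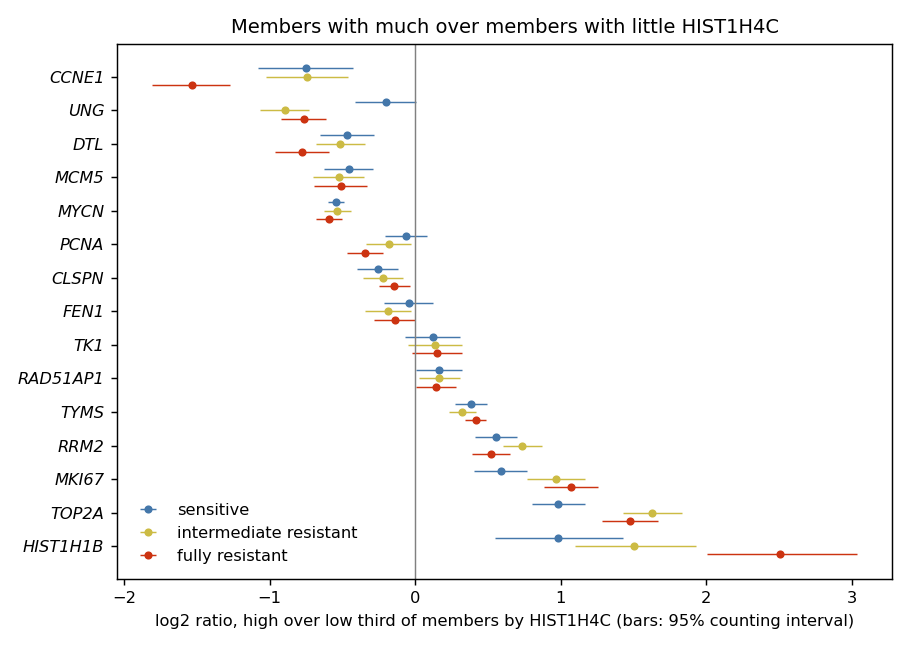
Log2 ratio of the members with most HIST1H4C over those with least, each 1 of 3 equal groups (horizontal axis), for 15 genes, with 95% counting intervals, in the sensitive, intermediate resistant and fully resistant libraries. CCNE1, UNG, DTL, MCM5 and MYCN lie left of 0, where the high group is lower, and RRM2, MKI67, TOP2A and HIST1H1B lie right of it.

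Since the rule gives every library the same share of members, the libraries were compared at 1 common limit, the 85th percentile of the sensitive library (a score of 13.1). By construction 15.01% of sensitive cells lay above it, against which 20.1% (19.1 to 21.1) of intermediate resistant cells and 29.9% (28.8 to 31.1) of fully resistant cells did. The difference was smaller without TYMS. With it left out of the score, a setting added after the data were seen, the shares were 16.2% (15.3 to 17.1) and 20.2% (19.2 to 21.2). The sensitive library again held 15.01% by construction. Its share has no counting error of its own, and the other intervals leave out the error of the limit. They therefore cannot show whether the intermediate resistant and sensitive shares differed. Leaving out any of the other 9 genes in turn gave 19.1% to 21.8% and 29.0% to 31.9%. With the 10 genes weighing equally the shares were 19.1% and 24.2%. In cells thinned to 5000 UMIs the shares above a score of 14 were 12.3%, 15.2% and 22.4% from the sensitive to the fully resistant library. The order of the libraries held in all of these settings.

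Between the members of the libraries, the replication genes themselves differed unevenly. TYMS stood at 316, 418 and 615 CPM in sensitive, intermediate resistant and fully resistant members, so it was 1.95 times (1.88 to 2.02) higher in fully resistant than in sensitive members. UNG had 87.7, 121 and 132 CPM, CLSPN, a fork protein that passes on the checkpoint signal, 187, 184 and 261 CPM, and RRM1, the large subunit of ribonucleotide reductase, 36.4, 70.7 and 80.2 CPM. Other genes ran downward. CDT1 stood at 88.4, 55.2 and 34.4 CPM, MCM10 at 88.1, 38.6 and 47.1 CPM, MCM3 at 189, 148 and 122 CPM, GINS2 at 181, 145 and 124 CPM and MCM5 at 130, 107 and 92.9 CPM. CDT1 was 2.57-fold (2.32 to 2.85) lower in fully resistant than in sensitive members, and MCM10 was 2.28-fold (2.06 to 2.52) lower in intermediate resistant than in sensitive members. The partners of MCM3 and MCM5 in the helicase ring stayed within 1.23-fold between these libraries. MCM2 had 56.8, 69.7 and 66.4 CPM, MCM4 44.1, 46.7 and 48.3 CPM, MCM6 29.1, 32.0 and 31.5 CPM and MCM7 65.1, 75.7 and 78.3 CPM. PCNA was lowest in intermediate resistant members (175, 138 and 202 CPM). Because each library had its own lowest member score, and the score genes chose the members, their levels are a description of these cells.

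**Figure D5:**
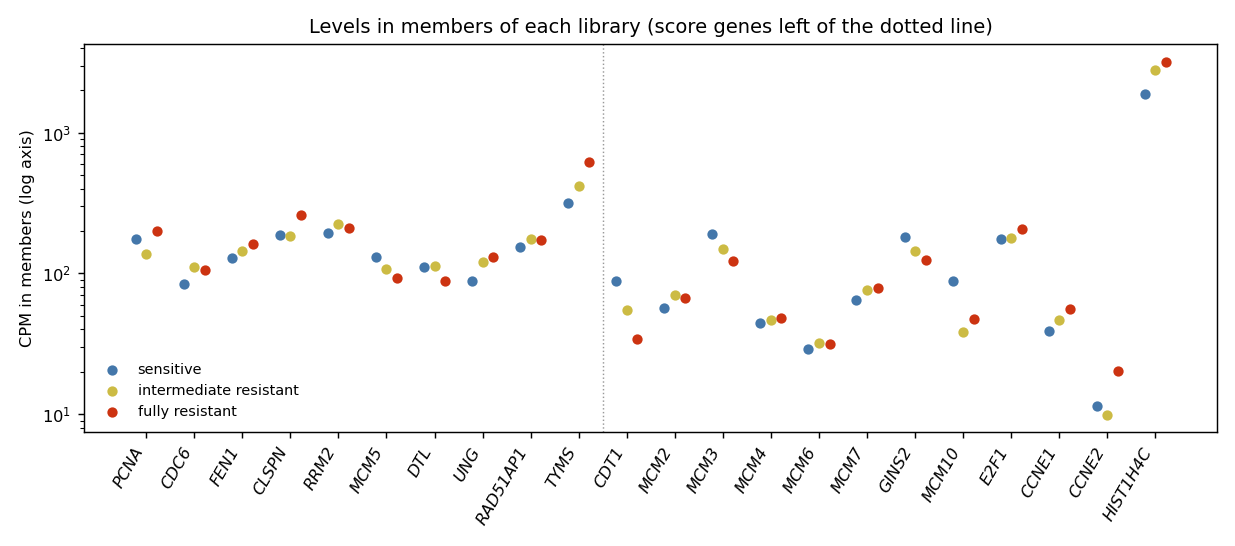
Level in CPM in members (vertical log axis) of the 10 score genes, left of the dotted line, and of 12 other genes of replication and its control, in the sensitive, intermediate resistant and fully resistant libraries from left to right. TYMS and HIST1H4C climb from the sensitive to the fully resistant library, and CDT1, MCM3, MCM5 and GINS2 descend.

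By list, 7 of 31 other S phase genes were at least 1.5-fold higher and 1 lower in fully resistant than in sensitive members, where 16% of all genes at 5 CPM or more were higher and 15.2% lower. For origin licensing and helicase it was 0 higher and 4 lower of 26, for polymerases 5 and 0 of 29, for nucleotide supply 3 and 2 of 25, and for G2 and M genes 5 and 2 of 55. Some of these counts lay below the background shares, such as 0 higher origin genes and 0 lower polymerase genes. None lay far above them, and counts this small are no result about the lists. In intermediate resistant over sensitive members, where 8.02% of all genes were higher and 11.9% lower, 1 and 0 of the other S phase genes and 0 and 3 of the origin genes passed. In fully over intermediate resistant members, where the background was 13% and 8.98%, 2 and 0 of the other S phase genes and 1 and 2 of the origin genes passed. POLE4, a small polymerase subunit gene, at 245 against 117 CPM, and TIMELESS, a fork protection gene, at 66.3 against 28.8 CPM, were more than 2-fold higher in fully resistant than in sensitive members. IMPDH1 and IMPDH2, which make guanine nucleotides, were more than 2-fold lower there, at 36.5 against 80.0 CPM and 37.6 against 82.0 CPM.

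Over all genes, the members of the 3 libraries differed as follows. At 20 CPM and 2-fold, 314 of 5447 genes (5.76%) were higher and 310 (5.69%) lower in fully resistant than in sensitive members, 95 (1.83%) higher and 186 (3.59%) lower of 5185 in intermediate resistant than in sensitive members, and 223 (4.21%) higher and 159 (3%) lower of 5298 in fully than in intermediate resistant members. The share of higher genes in the last pair was 58.4% and was 47.6% with TMM factors, which moved the median log2 ratio of all genes by -0.10. The same comparisons in the rest of the cells gave 300 genes (5.64%), 87 (1.74%) and 238 (4.64%) higher and 298 (5.6%), 179 (3.57%) and 148 (2.88%) lower, in the same order of pairs. These pairs share libraries and are not independent of each other.

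The genes with the highest and lowest ratios, chosen by rank at 50 CPM or more, were on none of the replication lists. MYCN was 3.07-fold (2.98 to 3.17) lower in fully resistant and 3.13-fold (3.04 to 3.23) lower in intermediate resistant than in sensitive members. NEUROD4, a proneural factor gene, stood at 74.1 CPM in fully resistant members against 0 UMIs in sensitive members, at least 330-fold higher with the sensitive sum set to a floor of 3 UMIs. PKIB, an inhibitor of protein kinase A, had 407 against 2.17 CPM in the same pair. RGS5, a regulator of G protein signalling, had 117.5 CPM in fully resistant members against 3437 CPM in sensitive members, and SLC18A2, the vesicular transporter of catecholamines, 1.05 against 51.0 CPM. ARHGAP36 had 307 CPM in intermediate resistant members against 1.87 CPM in sensitive members, and the neuropeptide gene CARTPT 194 against 2.40 CPM. CTAG2, a cancer-testis antigen gene, had 1.12 CPM in intermediate resistant against 75.2 CPM in sensitive members, and CAMK2N1, an inhibitor of the kinase CaMKII, 9.79 against 65.0 CPM. MGST1, a glutathione transferase gene, had 264 CPM in fully against 4.50 CPM in intermediate resistant members, and HRK, a cell death gene, 4.44 against 107 CPM.

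The remaining ranked genes followed several courses over sensitive, intermediate resistant and fully resistant members. IGFN1, with 0.225, 20.3 and 86.8 CPM, and CRABP1, a retinoic acid binding protein gene, with 118, 22.2 and 469 CPM, were highest in fully resistant members. TEAD2, a factor of the Hippo pathway, had 21.3, 1.06 and 51.2 CPM, DKK1, a Wnt inhibitor, 17.4, 2.98 and 106 CPM, and CSAG1 92.99, 9.79 and 162 CPM, so all 3 were lowest in intermediate resistant members. PTPRG, a receptor phosphatase, with 17.7, 99.9 and 2.34 CPM, TG with 29.6, 94.2 and 5.79 CPM, and the neuropeptide gene CRH with 1.42, 59.9 and 9.24 CPM were highest there. ECEL1, an endopeptidase gene of neurons, had 1.42, 54.8 and 50.3 CPM. Genes lowest in fully resistant members were DOK4, a docking protein gene, with 390, 93.5 and 15.1 CPM, COLEC11 with 60.9, 21.4 and 1.85 CPM, CYB561, a cytochrome of catecholamine vesicles, with 175, 35.7 and 7.95 CPM, NSG2 with 303, 179 and 13.7 CPM and VSTM2L with 46.9, 52.6 and 4.13 CPM. METRN had 147, 26.5 and 98.1 CPM. PRSS56 rested on 1 UMI in sensitive members, and had 60.9 CPM in fully resistant and 6.28 CPM in intermediate resistant members.

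Few genes differed between libraries to another extent in members than in the rest. The ratio between libraries in members was divided by the same ratio in the rest, for genes with at least 50 CPM in 1 of the 4 sums. For fully resistant over sensitive cells, 10 of 2910 genes (0.344%) had a ratio of ratios of at least 1.5 and 13 (0.447%) of at most the inverse. For intermediate resistant over sensitive cells it was 2 (0.0739%) and 8 (0.296%) of 2705, and for fully over intermediate resistant cells 4 (0.142%) and 6 (0.213%) of 2820. The 10 included KIAA0101, a PCNA-binding factor, at 1.63 (1.57 to 1.69), HIST1H4C at 1.61, ATAD2, a chromatin ATPase, at 1.60 and CDT1 at 1.53. RRM2, at 1.57, was also among them, but its own UMIs helped to choose the members. KIAA0101 had nearly the same level in members of the 3 libraries, at 466, 444 and 449 CPM, while the rest stood at 316, 237 and 187 CPM. Mitotic genes lay on the other side, with PLK1 at 0.435 (0.364 to 0.519), CCNB2 at 0.552, AURKA at 0.585 and CCNB1 at 0.613. AURKA had 50.6 CPM in fully resistant and 45.0 CPM in sensitive members, against 188 and 98.0 CPM in the rest. NEFM, a neurofilament gene, was 16.6 times higher in fully resistant than in sensitive members and 9.35 times higher in the rest, a ratio of ratios of 1.78 (1.64 to 1.93). Outside the cell cycle, C1orf21 (1.88), DPYSL5 (1.63) and PHYHIPL (1.62) lay on the higher side and PRCD (0.518) and RGS16 (0.587) on the lower side of the same pair. In intermediate resistant over sensitive cells PLK1 (0.540), CCNB2 (0.637) and AURKA (0.662) were again among the lower genes, and the pairs share the sensitive library. In fully over intermediate resistant cells CRH (2.08) was the highest and NEFM (1.56) also passed. The rest of the resistant libraries held more cells of very low score, as given above, and their part in these ratios was not tested. The lowest member score also differed, at 13.1, 14.2 and 17.0 from the sensitive to the fully resistant library. The summed score genes, which chose the members, were 2.16, 2.51 and 2.49 times higher in members than in the rest. The part of this uneven choice in the ratios of ratios was not tested either.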

How the data were processed

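The data were UMI counts from 3 single-cell libraries of Kelly cells, 1 per state, grouped by the drug response in the labels. The deposited values are raw counts per gene and barcode for 32738 gene rows and 737280 barcodes, with no normalization and no filter on barcodes. Per the submitters' processing notes, the authors used bcl2fastq and Cell Ranger on hg19, and versions are not given in the sources used here. No per-sample column was left unused (0 columns).

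Members, gene lists and settings were chosen with earlier results of these data known. Cells had at least 5000 UMIs, 500 genes and at most 20% mitochondrially encoded UMIs. The limit on mitochondrial UMIs removed 0, 4 and 2 barcodes. UMIs were summed over members and over the rest and divided by the total of each sum (CPM), so deep cells weigh most. Ties in the score went to the deeper cell. Ratios carry exact conditional Poisson 95% intervals, shares exact Clopper-Pearson intervals, and ratios of ratios intervals on the log scale, all for counting error only. Without replicates no test was run. Size rules were a ratio of 1.5 within a library (20 CPM), 2 between libraries (20 CPM), and 1.5 for the ratio of ratios (50 CPM). List genes were measured at 5 CPM and counted at 1.5-fold. A sum of 0 UMIs was set to 3 UMIs for a ratio, read as a bound.

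Named genes were the score genes, CCNE1, CCNE2, CDT1, MCM2 to MCM7, E2F1, MYCN, ALK, CTCFL, CCND1, CDKN1A and HIST1H4C. Added to them were the 10 genes highest and the 10 lowest in members in all 3 libraries, the 6 genes highest and lowest between libraries and in the ratio of ratios at 50 CPM, and up to 4 leading genes of each list. Results for some genes are left out here, and any other gene was chosen after its values were seen. Promoters came from RefSeq and were matched by symbol. The functions were tested on simulated data. Alternatives were other shares of cells, gene weights, sets of 5 score genes, thinning, cell limits, scalings and CPM minimums. Python 3.11.15, numpy 2.4.6, pandas 2.3.3, scipy 1.17.1, matplotlib 3.10.9, R 4.3.3 and edgeR 4.0.16 (TMM and median-of-ratios factors only) were used.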

Additional observations from a re-analysis of the deposited data

How the results depend on the processing

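No paired analysis was possible because each state had 1 library. Counts of genes are given here in the order sensitive, intermediate resistant and fully resistant members over the rest, and moved by over 1.5 times where named. With the score read after thinning to 5000 UMIs, 31, 129 and 151 genes were higher and 18, 47 and 45 lower, and 11 of the other S phase genes were higher in the sensitive library. With TMM factors 43 and 125 genes were higher in the first 2 libraries, and with median-of-ratios factors 50 and 141. With totals lacking mitochondrially encoded and ribosomal protein genes, 144 were higher in the intermediate resistant library and 81, 173 and 170 were lower. A minimum of 5 CPM gave 134, 437 and 421 higher and 97, 160 and 190 lower. The second set of 5 score genes gave 45 higher in the sensitive library. With the top 15% by the G2 and M score left out of the rest, 11, 46 and 43 were lower, and the ratio turned above 1 for AURKA (1.02 and 1.15), CCNB1 (1.01 and 1.10) and HMMR (1.03 and 1.03) in the sensitive and intermediate resistant libraries and for CENPE (1.00) and PSRC1 (1.26) in the intermediate resistant library alone. These last changes follow from taking mitotic cells out of the rest but not out of members. The cause of the other changes was not tested.

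Between libraries, a minimum of 5 CPM gave 704 higher and 720 lower in fully resistant over sensitive members, 281 and 481 in intermediate resistant over sensitive members, and 538 and 408 in fully over intermediate resistant members. The totals lacking those genes gave 477 lower in the first pair, 155 higher in the second and 290 lower in the third. The ratio of ratios passed either way for 23, 10 and 10 genes. In the first pair that became 10 with thinning and 41 with those totals. In the second it became 4 and 6 with the 2 sets of 5 score genes and 17 with those totals, and in the third 5 with the first set and 24 with those totals. The share of cells over a common limit was 8.86%, 13.0% and 23.1% at the 85th percentile of the pooled libraries, 12.3%, 15.2% and 22.4% with thinning, 16.2% and 20.2% in the resistant libraries without TYMS, and 19.1% and 24.2% there with equal gene weights. A change of direction was counted only for ratios that passed the size rule under the main settings. Of 477 single-gene ratios within libraries under 14 alternatives, 8 of 6678 values were such changes. Of 236 ratios between libraries, 0 of 3298 values were. A further 1624 values within libraries and 230 between libraries left the counting interval of the main ratio. Depth limited low genes such as ALK, with 13 UMIs in fully resistant members, and CTCFL, with 8 UMIs in sensitive members.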

Other observations

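Of 30 regulators of the step from G1 to S, 8 were at least 1.5-fold higher and 4 lower in fully resistant than in sensitive members, where 16% of all genes were higher and 15.2% lower. CDKN1A stood at 40.7 CPM in fully resistant members against 13.5 CPM in sensitive members (3.02 times higher, 2.56 to 3.58), and at 0.595 CPM in intermediate resistant members, 22.6-fold (11.7 to 50.3) lower than in sensitive members. CDKN2A, the gene of the p16 inhibitor, had 31.1 CPM in intermediate resistant members against 6.51 CPM in sensitive members, and 0 UMIs in fully resistant members. CDK4, a G1 kinase, had 492 CPM in intermediate resistant against 319 CPM in sensitive members. CCND1 was 1.46 times higher in the members of both resistant libraries than in sensitive members, under the 2-fold rule.

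Among targets of p53, 0 of 14, 4 of 13 and 1 of 15 were higher in sensitive, intermediate resistant and fully resistant members than in the rest, with 1, 0 and 0 lower, where 1.43%, 4.72% and 4.48% of all genes were higher. The 4 of 13 was 1 of 13 with TMM factors, with median-of-ratios factors and with totals lacking mitochondrially encoded and ribosomal protein genes. PMAIP1, the cell death gene NOXA, had 45.1, 49.1 and 56.2 CPM in members against 34.5, 28.6 and 32.9 CPM in the rest, ratios of 1.31, 1.72 and 1.71. HSP90B1, a chaperone of the endoplasmic reticulum, was 2.74 times higher in fully resistant and 2.02 times higher in intermediate resistant than in sensitive members. It had 164, 331 and 448 CPM in sensitive, intermediate resistant and fully resistant members, and its ratio of members over the rest was 1.26, 1.31 and 1.25 in the same order.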
